A study of Homo sapiens with 29 samples.

Results

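Small GTPases and the proteins that regulate them were examined in the transcription waves of HEK293 cells, which derive from human embryonic kidney. The members were chosen by symbol: genes named ARHGAP, ARHGEF, DOCK, RAPGEF, RASGRP, RASGRF, RASA, TBC1D, DENND, RALGAP, RALGPS, SIPA1L, RAB, RAP1, ARFGEF, ASAP, AGAP, SRGAP, TIAM or VAV, together with NF1. Of the 4592 genes listed in both tables, 114 were members. Cells were infected for 4 days with lentivirus carrying a control hairpin (shCtrl) or a hairpin against THOC5 (shTHOC5), a subunit of the THO complex that couples transcription to mRNA export. All cells were held in 100 μM DRB, an inhibitor of CDK9 that keeps RNA polymerase II near the promoter, for 3.5 h. After washing, 1 mM 4SU labelled new RNA, and cells were collected 10, 20, 30 or 40 min after release. Each condition and time was 1 library, 8 libraries in all, so the error of a gene's value at a given time is unknown. No test was run: shTHOC5 and shCtrl share the 4 times, and an exact two-sided permutation test over those 4 pairs cannot give a p below 0.125.

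For each gene and time the tables give a wave peak, the position where the released polymerase was called, within a window that starts 2 kb before the TSS and ends 120 kb after it. All positions below are distances from the TSS, so the first window position lies 2 kb upstream. A wave peak is called nearer where its position is less far downstream than in the other series, and farther where it is more so. A call upstream of the TSS, as at the first window position, counts as nearer even where its distance from the TSS is larger. The tables also give one rate (kb/min) and one coverage (RPM over the listed genes) for each series of 4 libraries. Coverage is that of the whole window, so in a gene narrower than 120 kb it takes in sequence beyond the gene end. Read numbers per library are unknown, because the coverage of each series sums to 1000000. THOC5 is not a listed gene, and its depletion was therefore not checked. The cell type was not checked either.

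Small GTPases act as switches that are active when bound to GTP and inactive when bound to GDP. Guanine nucleotide exchange factors (GEFs) load GTP, and GTPase-activating proteins (GAPs) speed its hydrolysis. Ras and Rap proteins act in growth and adhesion signalling, and Rab and Arf proteins in membrane traffic. The members comprised 46 GAPs, 46 GEFs, 18 GTPases of the Rab and Rap families and 4 binding partners. By target family, 48 belonged to Rab. Their median width was 135876 bp, against 107569 bp over all listed genes.

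The promoters of genes on which the results turn are shown first, as 300 bases from 250 before to 50 after the RefSeq start on GRCh38.p14, 5′ to 3′ on the gene's strand. NF1 and RAB10 had wave peaks close to their own TSS, RAB7A had wave peaks downstream of a second start, and the starts of KHDC4 and BCAS2 lay just upstream of the wave peaks recorded for ARHGEF2 and DENND2C. Capitals mark matches on either strand to GGGCGG (the GC box), to CCAAT (the CCAAT box), to TATAAA (the TATA box), to TGACGTCA (the cyclic AMP response element) and to CCGGAAGT (an ETS site).
NF1 (chr17:31094727-31095026, plus strand): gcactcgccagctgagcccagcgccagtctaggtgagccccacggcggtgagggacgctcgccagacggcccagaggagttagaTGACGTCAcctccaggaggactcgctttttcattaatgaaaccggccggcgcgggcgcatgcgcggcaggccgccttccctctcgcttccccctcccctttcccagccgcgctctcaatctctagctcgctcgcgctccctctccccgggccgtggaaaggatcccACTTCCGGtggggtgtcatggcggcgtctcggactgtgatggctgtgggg
RAB10 (chr2:26033834-26034133, plus strand): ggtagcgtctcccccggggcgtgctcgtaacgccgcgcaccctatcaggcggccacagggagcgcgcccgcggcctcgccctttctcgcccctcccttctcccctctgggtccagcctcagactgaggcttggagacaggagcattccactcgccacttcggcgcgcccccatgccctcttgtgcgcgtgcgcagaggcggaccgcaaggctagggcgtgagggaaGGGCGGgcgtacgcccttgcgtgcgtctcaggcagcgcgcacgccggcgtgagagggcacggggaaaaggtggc
RAB7A (chr3:128725933-128726232, plus strand): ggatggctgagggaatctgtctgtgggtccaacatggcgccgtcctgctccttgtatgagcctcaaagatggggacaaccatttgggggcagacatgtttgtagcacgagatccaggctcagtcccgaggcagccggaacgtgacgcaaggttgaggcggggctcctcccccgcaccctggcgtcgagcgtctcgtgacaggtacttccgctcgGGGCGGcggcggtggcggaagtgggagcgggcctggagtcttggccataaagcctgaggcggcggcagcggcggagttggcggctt
KHDC4 (chr1:155934364-155934663, minus strand): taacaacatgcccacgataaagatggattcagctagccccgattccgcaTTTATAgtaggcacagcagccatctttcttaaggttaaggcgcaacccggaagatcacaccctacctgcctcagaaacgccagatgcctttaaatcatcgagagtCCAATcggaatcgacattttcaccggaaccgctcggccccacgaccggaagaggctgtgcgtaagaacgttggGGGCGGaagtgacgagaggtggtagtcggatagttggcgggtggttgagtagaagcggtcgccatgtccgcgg
BCAS2 (chr1:114581566-114581865, minus strand): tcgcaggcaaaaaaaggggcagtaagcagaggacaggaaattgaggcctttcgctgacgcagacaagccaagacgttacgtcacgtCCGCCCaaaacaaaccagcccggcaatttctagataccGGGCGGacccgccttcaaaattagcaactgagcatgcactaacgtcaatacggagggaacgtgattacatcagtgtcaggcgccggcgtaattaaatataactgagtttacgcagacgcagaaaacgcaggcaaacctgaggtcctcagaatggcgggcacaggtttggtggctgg

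A RefSeq promoter was found for 89 of the 114 members. The GC box letters were present in 70 of these genes (78.7%), and in 45.0% of all 35116 promoters of the table. A member counted if any of its promoters held the letters, while the 35116 promoters were counted singly. This can raise the members' shares for each motif, so the shares are not like for like. The CCAAT letters were present in 29 (32.6%, against 34.6%), TATAAA in 10 (11.2%, against 11.5%), the cyclic AMP element in 5 (5.62%, against 1.85%) and the ETS letters in 4 (4.49%, against 4.14%). NF1 held the cyclic AMP element and the ETS letters, and RAB10 and RAB7A each held 1 GC box. The median GC content of the members' promoters was 68.0%, against 58.3% over 27305 genes.

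The members' wave peaks lay nearer the TSS in shTHOC5 than in shCtrl at each release time when judged by the median over all 114. This was not so at 10, 20 and 30 min in the 42 members without a distant wave peak, whose values are given further on. In shCtrl the 114 members had a median wave peak at 5.60, 4.79, 13.4 and 10.7 kb at 10, 20, 30 and 40 min. In shTHOC5 it was at the first window position at 10 min, then at 3.06 kb, 5.58 kb and 8.71 kb. The control medians did not follow the release times, and the shTHOC5 medians did. The same was so over all listed genes. Their medians were 14.7, 7.67, 17.3 and 17.5 kb in shCtrl and 0.579, 4.35, 6.96 and 10.8 kb in shTHOC5. The gene-by-gene difference had a median of -0.693, -0.402, -1.92 and -0.487 kb at the 4 times. Over all listed genes it was 0, 0, -0.569 and 0 kb.

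In the 10-min libraries, 60 members had a nearer wave peak in shTHOC5 (52.6%, against 45.9% of all listed genes), 37 had an equal position and 17 a farther one. At 20 min it was nearer in 62 members (54.4%, against 48.8%). At 30 min it was nearer in 74 members (64.9%, against 54.2%), the widest of the gaps at the 4 times. At 40 min it was nearer in 60 members (52.6%, against 49.1%) and farther in 42. The wave peak was nearer at all 4 times in 26 members (22.8%, against 15.8% of all listed genes) and farther at all 4 times in 2 (1.75%, against 2.96%), DOCK10 and RAB27B.

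The gap at 30 min came with fewer distant wave peaks. Wave peaks over 20 kb from the TSS were recorded at 30 min in 53 members in shCtrl (46.5%, against 48.7% of all listed genes) and in 26 in shTHOC5 (22.8%, against 36%). At 10 min there were 50 (43.9%, against 48.4%) and 33 (28.9%, against 37.2%). At 20 min there were 36 (31.6%, against 40.6%) and 29 (25.4%, against 33.8%). At 40 min there were 42 in both series (36.8%, against 48.6% in shCtrl and 43% in shTHOC5). Fewer distant peaks in shTHOC5 were thus also recorded over all listed genes. At the other end of the window, the first position was called at 10 min in 41 members in shCtrl (36.0%, against 33.8% of all listed genes) and in 66 members in shTHOC5 (57.9%, against 47.5%). At 40 min it was called in 17 members in shCtrl (14.9%, against 15.6% of all listed genes). In shTHOC5 it was called in 12 of the 114 members, against 15.0% of all listed genes.

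**Figure D1:**
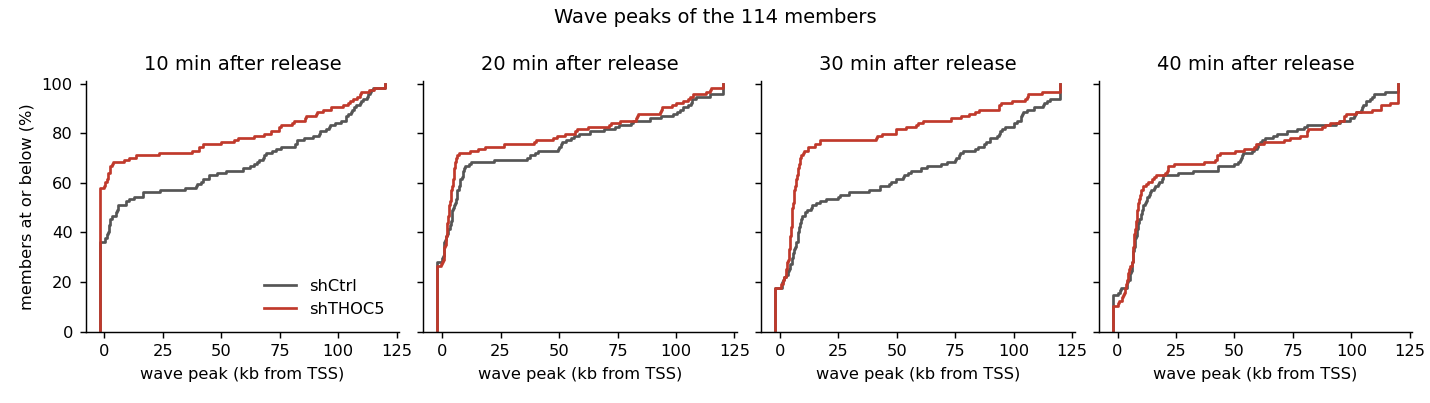
Cumulative share of the 114 members (%) by wave peak position (kb from TSS) at each release time, shCtrl in grey and shTHOC5 in red, 1 library per line. The shTHOC5 line starts higher at 10 min (66 against 41 members at the first position) and the lines are widest apart at 30 min beyond 20 kb (26 against 53 members).

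By role, the Rab and Rap GTPases had the larger shares of nearer wave peaks at 10, 20 and 40 min, with 12, 13 and 11 of 18 genes, and 11 of 18 at 30 min. The GEFs had 26, 24, 32 and 23 of 46 genes at the 4 times. The GAPs had 20, 23, 28 and 23 of 46. Over all listed genes the shares were 45.9%, 48.8%, 54.2% and 49.1% at the 4 times. In 21 GAPs the wave peak was at the first window position in both series at 10 min, which leaves no difference to record, against 10 GEFs and 3 GTPases. This was so in 1355 of the 4592 listed genes. These shares rest on 18 to 46 genes and 1 library each, and the difference between roles was not tested.

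**Figure D2:**
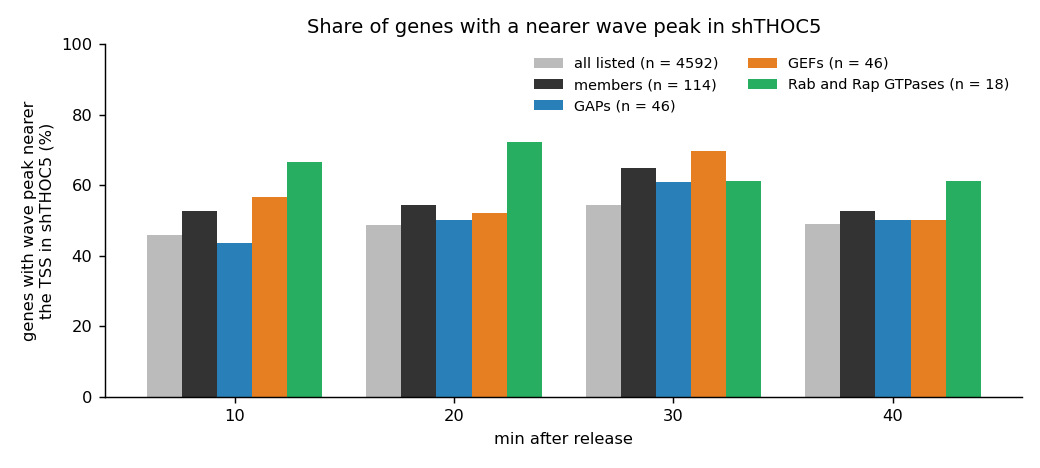
Bars give the share of genes (%) whose wave peak was nearer the TSS in shTHOC5 at each release time, for all 4592 listed genes, the 114 members, 46 GAPs, 46 GEFs and 18 Rab and Rap GTPases. The members stand above all listed genes at each time, by most at 30 min (64.9% against 54.2%).

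A wave that moves downstream gives wave peaks in the order of the release times. Such an order was found in 22 members in shCtrl (19.3%, against 13.2% of all listed genes) and in 53 in shTHOC5 (46.5%, against 31.3%). It was found in both series in 16 members (14.0%, against 9.23%), in shCtrl alone in 6 (5.26%, against 4.01%) and in shTHOC5 alone in 37 (32.5%, against 22.1%). From 30 to 40 min the wave peak moved upstream in 45 members in shCtrl (39.5%, against 34.9% of all listed genes) and in 13 in shTHOC5 (11.4%, against 20.8%). The members in order in shCtrl alone were ARHGAP23, ARHGAP29, DENND2C, NF1, RAB27B and RAP1GAP2.

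The authors' filters kept 11 members in shCtrl (9.65%, against 4.92% of all listed genes) and 11 in shTHOC5 (9.65%, against 10%). The paper names low coverage and a first wave peak close to the window start as grounds for removal. Every kept member was also in order in that series. DENND5A in shCtrl (507 rpm, first wave peak at 5.62 kb) was out of order and was not kept. These conditions did not account for every removal. Coverage of at least 100 rpm, a first wave peak at least 2 kb into the window and order were together met by 12 members in shCtrl and 15 in shTHOC5. DENND3 in shTHOC5 (112 rpm, first wave peak at 13.6 kb) was in order and was not kept, and the ground is not known. The 5 of 114 members kept in both, against 110 of the 4592 listed genes, were ARHGAP17, ARHGEF17, ARHGEF18, ARHGEF2 and DENND6A. ARFGEF2, ARHGAP35, ARHGEF11, DENND2C, NF1 and RAB10 were kept in shCtrl alone. ARHGEF26, ARHGEF7, RAB6A, RAB7A, RAP1A and VAV2 were kept in shTHOC5 alone. In each of these 6 the control wave peaks were out of order, and no member out of order in a series was kept in it. Of the 17 members kept in either series, 10 were GEFs, 3 GAPs and 4 GTPases. Over all 4592 listed genes, 577 were kept in either series.

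NF1 (ENSG00000196712, chromosome 17 from 31094927 to 31382116, plus strand) encodes neurofibromin, a GAP that switches Ras off. In shCtrl its wave peak was at 0.190 kb, 0.599 kb, 1.97 kb and 6.52 kb at 10, 20, 30 and 40 min. In shTHOC5 it was at the first window position at 10 and 20 min, then at 2.72 kb and 3.25 kb. The shTHOC5 wave peak was thus less far downstream at 10, 20 and 40 min and farther at 30 min. At 10 and 20 min it was called upstream of the TSS, at a larger distance from it than the control peak. The 10-min control peak lay in exon 1 of the canonical transcript (position 31095116), and the control peaks at 20, 30 and 40 min in intron 1, with the last at position 31101447. The rate was 0.188 kb/min in shCtrl and 0.152 kb/min in shTHOC5, and the coverage was 224 rpm and 238 rpm. The 40-min wave peaks of both series thus lay in the first intron of a gene of 287190 bp.

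Among the GAPs in order in both series, ARHGAP35 and ARHGAP5, which encode closely related GAPs, had the lowest rate ratios of shTHOC5 over shCtrl. ARHGAP35 (ENSG00000160007, chromosome 19 from 46860997 to 47005077, plus strand) had control wave peaks at 2.04, 4.18, 5.99 and 66.4 kb. In shTHOC5 they were at the first window position, 1.73 kb, 4.80 kb and 5.20 kb. Its rate was 1.41 kb/min in shCtrl and 0.212 kb/min in shTHOC5, a ratio of 0.151. The control rate rested on the 40-min wave peak, which lay in intron 2, while the 3 earlier peaks lay in intron 1.

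ARHGAP5 (ENSG00000100852) showed the same form. Its control wave peaks were at the first window position, -0.109 kb, 6.85 kb and 53.1 kb, and its shTHOC5 wave peaks at the first position, 1.02 kb, 5.11 kb and 8.41 kb. The ratio of its rates was 0.235. ARHGAP17 (ENSG00000140750), which encodes a GAP for Cdc42 and Rac, had control wave peaks at 5.10, 6.26, 8.56 and 8.81 kb and shTHOC5 wave peaks at 1.35, 4.99, 7.23 and 7.89 kb. Each of its shTHOC5 peaks was nearer the TSS, yet its rate was 0.251 kb/min in shCtrl and 0.256 kb/min in shTHOC5, because the gap was widest at 10 min.

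The subunits of the GAP for Rab3 differed from each other. RAB3GAP1, the catalytic subunit, had control wave peaks at the first window position, 0.599, 1.05 and 1.62 kb and shTHOC5 wave peaks at the first position, 1.99, 2.59 and 2.81 kb. It had the lowest control rate of the 16, 0.103 kb/min, and the highest ratio, 1.38. RAB3GAP2, the regulatory subunit, had control wave peaks at the first position, 1.496, 3.39 and 7.34 kb and shTHOC5 wave peaks at the first position, 1.87, 4.25 and 5.08 kb, a ratio of 0.848. RALGAPA1, the catalytic subunit of a GAP for Ral, had control wave peaks at 0.127, 5.64, 9.41 and 12.4 kb, and in shTHOC5 at the first position, 3.09, 4.96 and 8.70 kb. All its shTHOC5 peaks were less far downstream, and the one at 10 min was called upstream of the TSS. TBC1D15, a GAP for Rab7, was at the first position in both series at 10 min and at 1.47 kb in shCtrl and 1.46 kb in shTHOC5 at 20 min. It was nearer in shTHOC5 at 30 min (5.82 kb against 7.59 kb) and at 40 min (6.47 kb against 10.2 kb).

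Among the GEFs, ARHGEF11 (ENSG00000132694), a GEF that acts downstream of heterotrimeric G proteins, had control wave peaks at 2.50, 4.39, 7.88 and 8.10 kb. In shTHOC5 they were at the first window position, 2.19, 4.08 and 4.18 kb, all nearer, and the rate ratio was 0.721. ARFGEF2, an Arf GEF of the Golgi, had control wave peaks at 0.881, 8.94, 8.96 and 9.33 kb and shTHOC5 wave peaks at the first position, 3.69, 6.78 and 8.43 kb. Its paralogue ARFGEF1 was level at 10 min, farther in shTHOC5 at 20 min (3.59 kb against 2.40 kb) and nearer at 40 min (6.59 kb against 8.54 kb). RAPGEF2, a GEF for Rap, was farther in shTHOC5 at 20 min (4.604 kb against 3.96 kb) and nearer at 40 min (7.06 kb against 8.42 kb). Its paralogue RAPGEF6 was called at the first window position in both series at 10 and 20 min, and later at 3.41 and 5.58 kb in shCtrl and at 1.76 and 4.07 kb in shTHOC5.

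RAB10 (ENSG00000084733, chromosome 2 from 26034084 to 26137454, plus strand), a GTPase of exocytic traffic, was the one GTPase in order in both series. Its control wave peaks were at 2.09, 4.38, 5.16 and 6.89 kb and its shTHOC5 wave peaks at the first window position, 1.86, 5.02 and 6.31 kb. Each shTHOC5 peak was nearer, and the gap was smallest at 30 min. Its rate was 0.208 kb/min in shCtrl and 0.236 kb/min in shTHOC5, a ratio of 1.13. The higher rate beside nearer peaks came with a gap that was widest at 10 min. The deposited rate is the least-squares slope through the 4 peaks, counted from the window start, and a point at 0 min. Without that point the slope was 0.152 kb/min in shCtrl and 0.281 kb/min in shTHOC5.

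**Figure D3:**
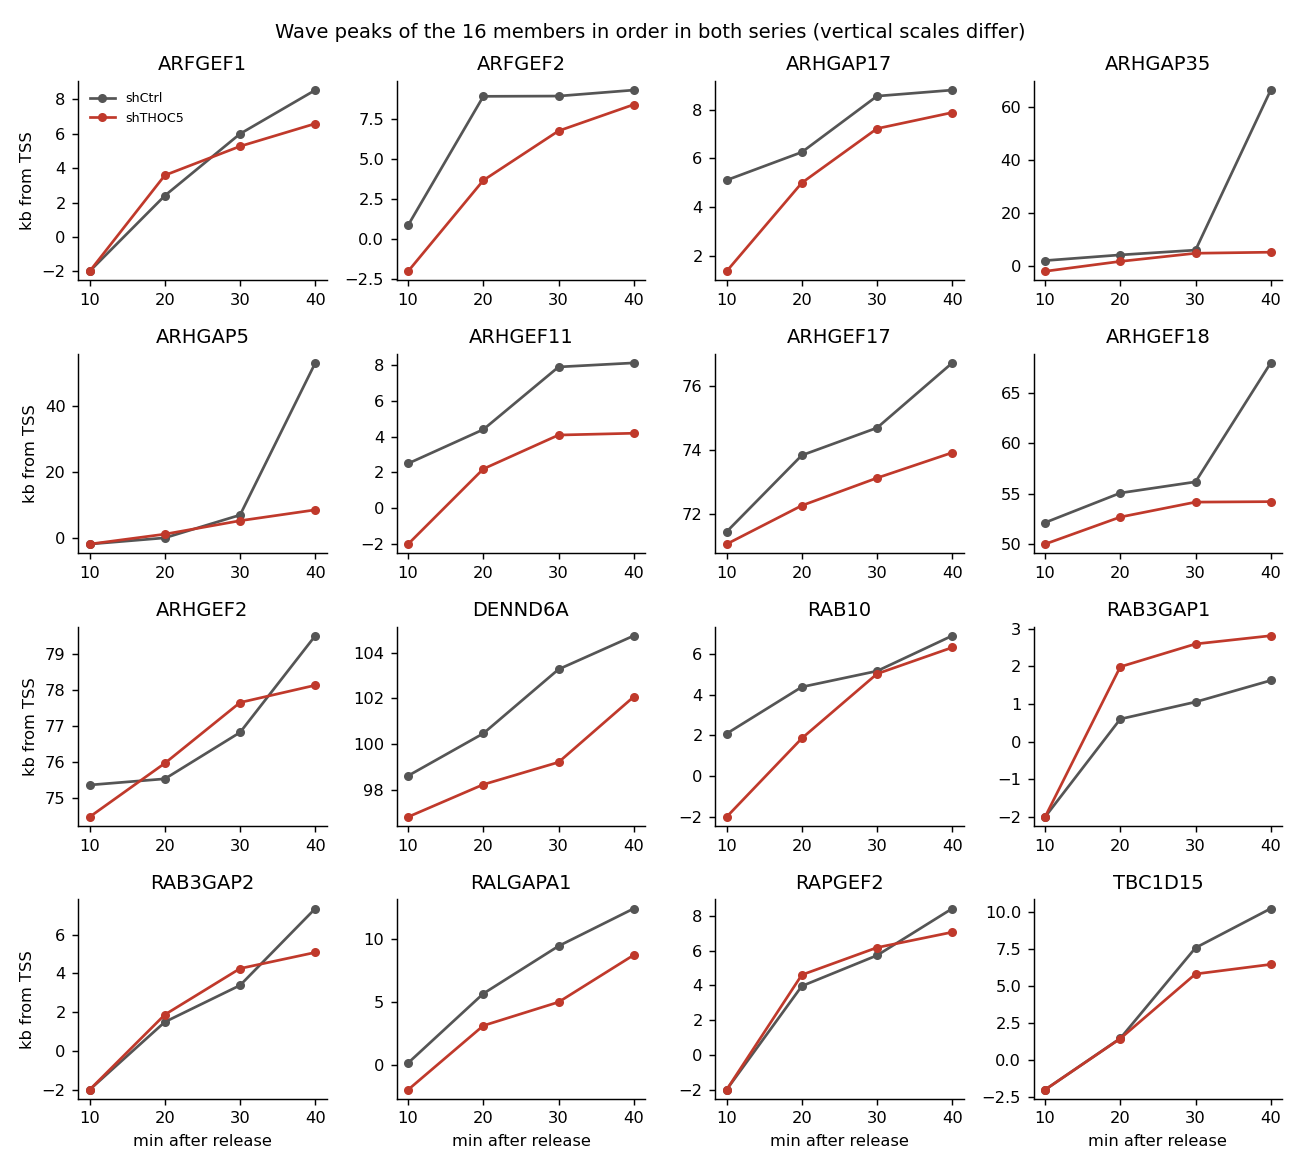
Wave peak (kb from TSS, vertical scales differ) against min after release for the 16 members in order in both series, shCtrl in grey and shTHOC5 in red, 1 library per point. ARHGAP35, ARHGAP5 and ARHGEF18 have a long step between 30 and 40 min in shCtrl alone, and 15 of the 16 shTHOC5 peaks are nearer the TSS at 40 min.

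Over the 16 members in order in both series, the rate in shTHOC5 was a median of 0.884 times that in shCtrl, against 0.938 over the 424 listed genes in order in both. It was lower in 13 of the 16 (81.2%, against 70.3%). In the 10 of them with all wave peaks within 20 kb it was lower in 7 (70%, against 63.5% of such listed genes), and it was lower in 68.8% of the 16 when the slope was taken without the point at 0 min. The wave peak was nearer in shTHOC5 in 10 of the 16 at 10 min (62.5%, against 60.8% of the 424 genes) and at 20 min (62.5%, against 72.6%). It was nearer in 12 at 30 min (75%, against 77.8%) and in 15 at 40 min (93.8%, against 75.7%), so the members stood near or below the background except at 40 min. The member that was not nearer at 40 min was RAB3GAP1. Control rates ranged from 0.103 kb/min in RAB3GAP1 to 2.18 kb/min in DENND6A. In ARHGEF17, ARHGEF2 and DENND6A all wave peaks lay beyond the gene end, so their rates are not those of the members. Counted from a neighbouring start, as given further on, their slopes were 0.199, 0.151 and 0.226 kb/min in shCtrl. In shTHOC5 these slopes were 0.131, 0.141 and 0.150 kb/min. In the 10 of the 16 whose wave peaks all lay within 20 kb of the TSS, control rates ranged from 0.103 to 0.381 kb/min. Leaving out ARHGEF17, ARHGEF18, ARHGEF2 and DENND6A, in which all peaks lay beyond 20 kb, 76 wave peaks of these genes lay in an intron, 1 in an exon and 19 outside the canonical transcript, and 68 of the 76 were in intron 1.

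RASA1, RASA2 and RAP1B were in order in shTHOC5 alone, while RASA3, another Ras GAP, was out of order in both series. RASA1 was at the first window position from 10 to 30 min and at 6.59 kb at 40 min in shCtrl, and at the first position, 0.276, 3.02 and 5.01 kb in shTHOC5. RASA2 had control wave peaks at 2.43, 3.43, 53.1 and 7.65 kb and shTHOC5 wave peaks at the first position, 3.03, 6.41 and 8.48 kb. RAP1B, a GTPase of cell adhesion, had control wave peaks at 1.14, 3.41, 78.4 and 10.2 kb and shTHOC5 wave peaks at the first position, 2.35, 4.22 and 6.65 kb. In RASA2 and RAP1B a single distant control peak at 30 min broke the order. SRGAP2 and its near-identical copies SRGAP2B and SRGAP2C share sequence, so reads may be split between them and their values are uncertain. SRGAP2C was at the first window position in all 8 libraries.

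In 18 members all 8 wave peaks lay over 20 kb from the TSS, in 42 all 8 lay within 20 kb, and the other 54 were mixed. Of all 4592 listed genes, 1451 had all 8 within 20 kb. For the 18 and the 54 no value over all listed genes is given here. Many distant peaks lay just downstream of another annotated protein-coding start. Of the members' wave peaks over 20 kb in shCtrl, 20 of 50 at 10 min, 18 of 36 at 20 min, 20 of 53 at 30 min and 11 of 42 at 40 min lay within 10 kb downstream of such a start. In shTHOC5 these were 20 of 33, 18 of 29, 17 of 26 and 17 of 42. Over all listed genes whose width matched the annotation the shares ran from 32.6% to 45.4% in shCtrl and from 41.0% to 56.8% in shTHOC5. Of positions placed every 500 bp beyond 20 kb in the members' windows, 9.94% lay so close to a start. The genes in the next paragraphs were chosen after their values were seen, apart from those kept or in order.

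ARHGEF2 (ENSG00000116584, chromosome 1 from 155946851 to 156007070, minus strand), a microtubule-bound GEF, had the highest window coverage of all members, 2300 rpm in shCtrl and 2196 rpm in shTHOC5. That window runs past the gene end, so the value is not that of ARHGEF2 alone. Its control wave peaks were at 75.4, 75.5, 76.8 and 79.5 kb and its shTHOC5 wave peaks at 74.5, 76.0, 77.7 and 78.1 kb, all beyond the end of a gene of 60220 bp. The next gene on the same strand is KHDC4, whose promoter is printed above. Counted from the start of KHDC4, the control peaks lay at 2.66, 2.83, 4.13 and 6.83 kb and the shTHOC5 peaks at 1.76, 3.26, 4.96 and 5.44 kb. The deposited rate of ARHGEF2 was 1.65 kb/min in shCtrl, and the slope of the distances from KHDC4 with a point at 0 was 0.151 kb/min.

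DENND6A (ENSG00000174839, chromosome 3 from 57625454 to 57693077, minus strand), a Rab GEF, had control wave peaks at 98.6, 100.5, 103.3 and 104.7 kb and shTHOC5 wave peaks at 96.8, 98.2, 99.2 and 102.1 kb. The peaks lay downstream of ARF4, itself a small GTPase of the Arf family. From that start they were at 2.87, 4.72, 7.52 and 8.98 kb in shCtrl and at 1.07, 2.49, 3.46 and 6.32 kb in shTHOC5. The shTHOC5 peak was nearer at each time. The rate was 2.18 kb/min as deposited and 0.226 kb/min from the start of ARF4 in shCtrl.

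ARHGEF17 (ENSG00000110237, chromosome 11 from 73308276 to 73369388, plus strand), a GEF, had wave peaks downstream of RELT, at 3.05, 5.45, 6.31 and 8.34 kb from that start in shCtrl and at 2.67, 3.88, 4.74 and 5.53 kb in shTHOC5. All 4 were nearer in shTHOC5. DENND2C, a Rab GEF kept in shCtrl, had wave peaks downstream of BCAS2, at 2.99, 4.56, 4.75 and 6.33 kb in shCtrl and at 2.06, 5.06, 5.80 and 5.78 kb in shTHOC5. Its shTHOC5 peaks were nearer at 10 and 40 min. RAB3B, a Rab of regulated secretion, had wave peaks downstream of NRDC, which reached the end of the window at 20 min in shCtrl and at 30 min in shTHOC5.

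In RAB11A, RAB6B and RASGRP1 the nearby start lay on the opposite strand. RAB11A, a GTPase of recycling endosomes, has its nearest RefSeq start 143.4 kb downstream of the TSS of its gene record. That start lies beyond the end of the window, so a wave from it could not be recorded here. The control wave peaks in the RAB11A window were at 64.0, 63.3, 63.0 and 58.3 kb. The shTHOC5 wave peaks were at 64.1, 62.5, 61.2 and 59.3 kb, so that the peaks moved upstream with time in both series. Counted from DENND4A, which is itself a member, they lay at 2.03, 2.76, 3.03 and 7.76 kb in shCtrl and at 1.94, 3.55, 4.85 and 6.73 kb in shTHOC5. In the window of DENND4A itself the control peak was at the first position at 10, 20 and 30 min and at 6.22 kb at 40 min. RASGRP1, a Ras GEF of lymphocytes, had control wave peaks at 106.9, 106.4, 105.8 and 104.9 kb, which lay 4.54, 5.06, 5.62 and 6.52 kb downstream of FAM98B. The kit named in the labels does not mark strand, and whether coverage was separated by strand is not given in the sources used here, so reads from such a gene and its partner cannot be told apart.

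**Figure D4:**
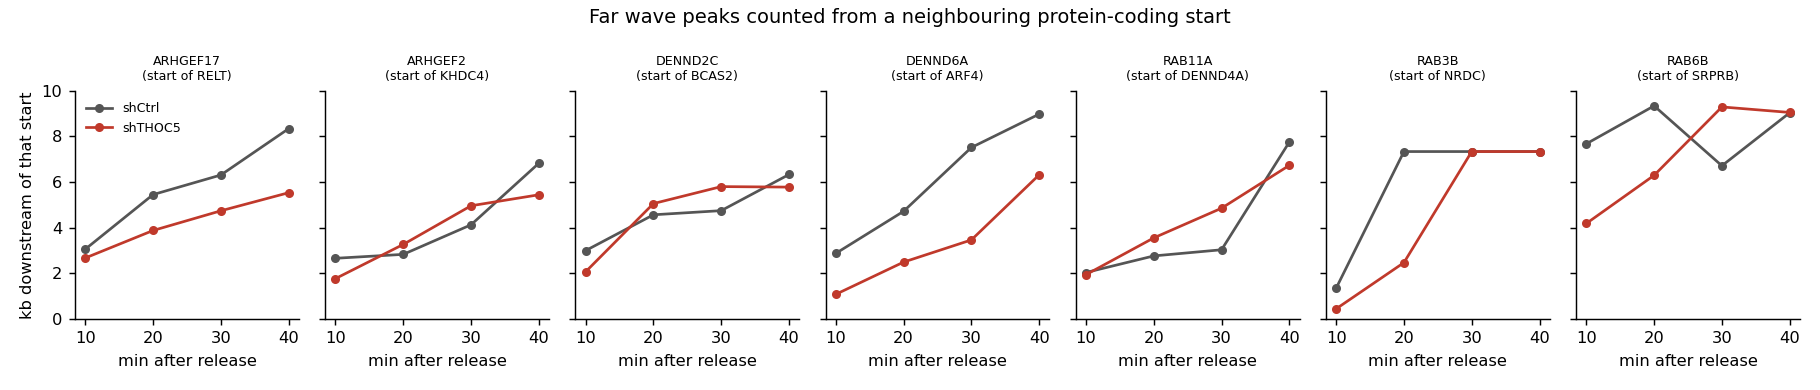
Distance of the wave peak (kb) downstream of another protein-coding start against min after release, for the 7 members whose 8 wave peaks all lay within 10 kb of the same start of a gene with a symbol, shCtrl in grey and shTHOC5 in red, 1 library per point. The control medians lie at 2.87, 4.72, 6.31 and 7.76 kb and the shTHOC5 medians at 1.94, 3.55, 4.96 and 6.32 kb, but at 30 min 4 of the 7 members were farther in shTHOC5.

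In these 7 members the wave peak counted from the neighbouring start was nearer in shTHOC5 in 7 at 10 min, 4 at 20 min, 2 at 30 min and 5 at 40 min. At 30 min it was farther in 4 and equal in 1, with a median difference of 0.835 kb toward farther, opposite to the order of the medians.

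Some members had a second start of their own. RAB7A (ENSG00000075785, chromosome 3 from 128693669 to 128825942, plus strand), a GTPase of late endosomes, has a RefSeq start 32.5 kb downstream of the TSS of its gene record. Its control wave peaks were at 41.4, 40.9, 42.8 and 42.9 kb and its shTHOC5 wave peaks at 37.4, 39.1, 41.0 and 42.7 kb. From the RefSeq start, whose promoter is printed above, these were 8.84, 8.35, 10.2 and 10.4 kb in shCtrl and 4.90, 6.62, 8.52 and 10.1 kb in shTHOC5. The shTHOC5 peaks were nearer at all 4 times, and the gap was smallest at 40 min. RAP1A, a GTPase of cell adhesion, had shTHOC5 wave peaks at 80.2, 83.3, 85.1 and 87.3 kb, which lay 2.62, 5.76, 7.48 and 9.74 kb from an own start. Its control peaks were at 85.5, 114.7, 89.8 and 101.6 kb, out of order.

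ARHGEF18, a GEF of epithelial junctions, had wave peaks 5.85, 8.80 and 9.91 kb from an own start at 10, 20 and 30 min in shCtrl and 3.71, 6.41, 7.89 and 7.94 kb in shTHOC5. At 40 min the control peak was at 68.0 kb from the TSS, against 54.2 kb in shTHOC5. ARHGEF7, a GEF for Rac and Cdc42, had shTHOC5 wave peaks at 40.4, 47.5, 49.8 and 50.0 kb and control wave peaks at 112.1, 52.8, 52.8 and 52.8 kb. RAB6A, a Golgi GTPase, had control wave peaks at 68.2, 9.001, 10.5 and 10.8 kb and shTHOC5 wave peaks at 1.48, 4.51, 9.10 and 9.23 kb, and it was nearer in shTHOC5 at all 4 times. Of the 89 members with a RefSeq promoter, 76 had a RefSeq start within 2 kb of the TSS, and in 11 the nearest was over 20 kb away.

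In the 42 members with all 8 wave peaks within 20 kb, the wave peak was nearer in shTHOC5 in 12 at 10 min (28.6%, against 27.7% of the 1451 such listed genes) and in 17 at 20 min (40.5%, against 35.1%). It was nearer in 20 at 30 min (47.6%, against 41.5%) and in 19 at 40 min (45.2%, against 43.5%). Farther peaks were recorded in 2, 10, 13 and 16 of them, and equal positions in 28, 15, 9 and 7. The median difference was 0 kb at each time in these genes. Their median wave peak was farther in shTHOC5 at 20 min (1.17 kb, against 0.591 kb in shCtrl) and at 30 min (4.92 kb against 4.28 kb), and nearer at 40 min (6.48 kb against 6.94 kb).

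The members' coverage ratio of shTHOC5 over shCtrl had a median of 1.12, against 1.09 over all listed genes. It was above 1 in 68 members (59.6%, against 56.7% of all listed genes). It ranged from 0.0643 in DOCK10 (26.9 and 1.73 rpm) to 4.59 in DENND1B (27.9 and 128 rpm), both of low control coverage. It was at least 1.5-fold higher in 25 members (21.9%, against 27.6% of all listed genes) and at least 1.5-fold lower in 19 (16.7%, against 15.8%). The direction depends on the scale: after division by the median coverage of all listed genes in each series, the median ratio was 0.942. Of the 55 members that reached 100 rpm in both series, 3 were at least 1.5-fold higher in shTHOC5 (5.45%, against 13.7% of the listed genes with such coverage) and 6 at least 1.5-fold lower (10.9%, against 10.4%). In bulk libraries such as these, fewer cells and less RNA per cell cannot be told apart.

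TBC1D32 had 108 rpm in shCtrl and 244 rpm in shTHOC5, a ratio of 2.27. ARHGAP5 had 138 and 253 rpm, a ratio of 1.84, and TBC1D15 186 and 310 rpm, a ratio of 1.67. RAB11FIP4, an effector of Rab11, had 203 and 112 rpm, a ratio of 0.552. ARHGEF18 had 447 and 257 rpm, a ratio of 0.575, and ARHGAP35 had 456 and 271 rpm, a ratio of 0.595. After ARHGEF2, the highest control coverage was that of RAB7A (1354 rpm, against 857 rpm in shTHOC5) and RAB10 (699.8 rpm, against 479.8 rpm). The window coverage of both was lower in shTHOC5. The windows of RAB10, ARHGAP5 and TBC1D15 run past the gene end, so their coverage takes in sequence beyond these genes.

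**Figure D5:**
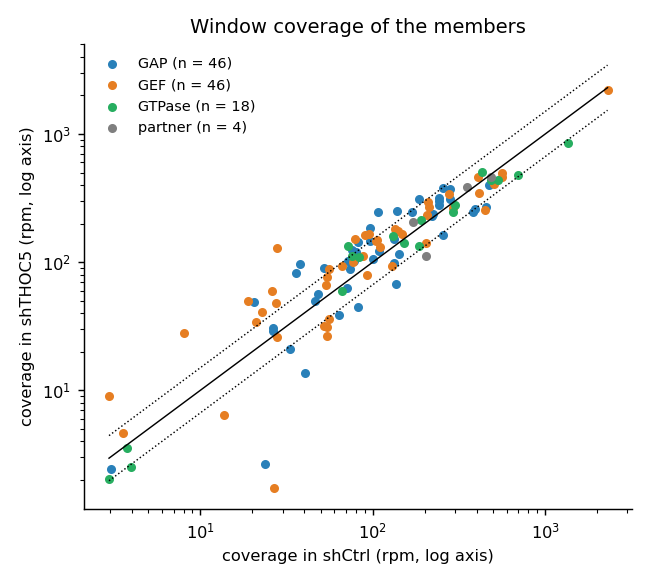
Window coverage in shTHOC5 against shCtrl (rpm, both axes logarithmic) for the 114 members, coloured by role, 1 authors' value per gene and series. The solid line marks equality and the dotted lines a 1.5-fold difference, and most members above 100 rpm lie between the dotted lines.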

How the data were processed

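The data were DRB/TTchem-seq of HEK293 cells in 8 libraries, 1 for each of 4 release times in shCtrl and shTHOC5. The other samples of the study, 29 in all with these, were not analysed here. The authors called wave peaks for single genes with a published pipeline over protein-coding genes and deposited positions in bp, rates in kb/min and a filter mark. The aligner used for these libraries is not given in the sources used here; GRCh38 is named in the labels. The coverage deposited by the authors was read as RPM, because each column sums to 1000000. Depth per library is unknown, so the precision it gives is unknown too.

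Positions were expressed relative to the TSS, in kb. Rates were refitted by least squares over 5 points and matched the deposited rates. Symbols and coordinates came from GENCODE release 44, which held 4590 of the 4592 identifiers, 4416 with the listed width and all 114 members. A gene's own starts within 1 kb of its TSS were not counted as another start. Values were described without tests. For the alternatives, shares were given Wilson intervals and medians intervals from order statistics, both at 95% and over genes only. Functions were tested on simulated data.

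The members and gene lists were chosen with earlier results of these data known. Genes named were NF1, members kept or in order in both series, extremes of the rate and coverage ratios, members of the highest coverage, members kept in a single series, and paralogue pairs; others were chosen after their values were seen. Some items are not reported here. Alternatives changed the genes included, the order rule, the release times, the fit and the coverage scale. The software was scipy 1.17.1, pandas 2.3.3 and numpy 2.4.6 under Python 3.11.15, with figures made in matplotlib 3.10.9.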

Additional observations from a re-analysis of the deposited data

How the results depend on the processing

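The error of each wave peak is unknown, and intervals over genes served only to say whether an alternative moved a value. The series were compared time by time, so differences are paired by release time, but no test was run on these pairs. The labels give these libraries no replicate numbers. Of the 104 values recomputed, 70 held (a count within 1.5 times, a share or median within its 95% interval), 32 moved and 2 changed direction; the cause of the shifts was not tested. Leaving out the 20-min time cannot move the rate, since the fit gives it no weight. The coverage direction turned when coverage was divided by the median of all listed genes, to a ratio of 0.942 with 44.7% of members higher.

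Members in order were 31.6% in shCtrl and 60.5% in shTHOC5 with ties allowed, and 30.9% and 60% with at least 100 rpm in both series. Without the 10-min time they were 32.5% and 61.4%, without the 20-min time 28.1% and 57.9%, and in shCtrl 30.7% without the 30-min and 33.3% without the 40-min time. Of the 16 members, 81.2% had a lower rate in shTHOC5. This was 93.8% without the 10-min time, and 68.8% without the 40-min time or when the slope was taken without the point at 0 min. It was 70% without members with a peak over 20 kb.

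The share with a nearer wave peak in shTHOC5 was 61.8% at 10 min and 63.6% at 20 and 40 min with at least 100 rpm in both. In members in order in both it was 62.5% at 10 min, 75% at 30 min and 93.8% at 40 min, with a median difference of -2.46 kb at 40 min. In members at neither window edge it was 73.2%, 72.7%, 79.2% and 65.1% at the 4 times. Leaving out the edges also leaves out equal calls at the first position, which can raise the share in any set of genes. For the coverage and edge restrictions no share over all listed genes is given here, so these shares are not read as particular to the members. Counting differences of at least 1 kb gave 43.9% at 20 min. As means, the differences were -13.5, -4.43 and -19.1 kb at 10, 20 and 30 min.

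Some alternatives were chosen after seeing the data. Without the members with a wave peak over 20 kb from the TSS, 42 remained, with 5 kept in shCtrl and 2 in shTHOC5. There the wave peak was nearer in 28.6% at 10 min, 40.5% at 20 min and 47.6% at 30 min, and the median difference at 30 min was 0 kb. At 10 min, 28 of the 42 had equal positions. Restricting to members with a RefSeq start within 2 kb of the TSS, or leaving out SRGAP2 and its copies, moved no value so computed.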

Other observations

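Of 113 other genes of small GTPase pathways, listed by symbol from general knowledge, 61 were in the tables. Their wave peaks were in order in 9 genes in shCtrl (14.8%, against 13.2% of all listed genes) and in 35 in shTHOC5 (57.4%, against 31.3%), and in both series in 8 (13.1%, against 9.23%). The authors' filters kept 1 of them in shCtrl (1.64%, against 4.92%) and 15 in shTHOC5 (24.6%, against 10%). In shTHOC5 the wave peak was nearer in 33 of the 61 at 10 min (54.1%, against 45.9%) and in 37 at 20 min (60.7%, against 48.8%). It was nearer in 32 at 30 min (52.5%, against 54.2%) and in 34 at 40 min (55.7%, against 49.1%).

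Among the 8 in order in both series, SOS1, a GEF for Ras, had control wave peaks at -1.53, 6.77, 8.91 and 11.6 kb and shTHOC5 wave peaks at 0.779, 6.40, 9.61 and 10.4 kb. SPRED2, an inhibitor of Ras signalling, had 13.3 kb in shCtrl and 10.5 kb in shTHOC5 at 40 min. ROCK1, a kinase of the actin cytoskeleton, had control wave peaks at 1.32, 3.38, 9.45 and 52.2 kb and shTHOC5 wave peaks at 2.85, 5.29, 7.01 and 9.85 kb. As in ARHGAP35 and ARHGAP5, the distant peak was that of the control library at 40 min. PREX1, a GEF for Rac, had the opposite pattern, at 7.54 kb in shCtrl and 107.9 kb in shTHOC5 at 40 min. RRAS2, a GTPase of the Ras family, differed little, at 9.21 and 8.48 kb at 10 min and 14.0 and 13.4 kb at 40 min. EXOC2, a Ral effector of the exocyst, was farther in shTHOC5 at 40 min, at 7.96 kb against 4.67 kb.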
